A study of Mus musculus with 12 samples.

Results

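Metformin enters and leaves the proximal tubule cell through organic cation carriers. Here 5 genes of these carrier families are described by their DNA methylation (DNAme) in mouse PKD1-Het cells. The genes are Slc22a2 (OCT2), Slc22a3 (OCT3), Slc29a4 (PMAT), Slc47a1 (MATE1) and Slc47a2 (MATE2), 5 of 37273 genes on the nuclear chromosomes of the GENCODE M1 annotation on mm9. They were taken by name from knowledge of metformin transport, not from a measured value. Earlier results of these data were known when they were chosen. Each gene was read from 2000 bp upstream of its start to its end. DNAme was measured by reduced representation bisulfite sequencing (RRBS), in which bisulfite-treated DNA is sequenced from fragments rich in CpGs, and the level of a CpG is the percent of its reads that are methylated.

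PKD1-Het cells are proximal renal tubule cells isolated from Pkd1 flox/-:TSLargeT mice, so all groups share 1 Pkd1 allele flanked by loxP sites, 1 null Pkd1 allele and a large T antigen transgene, and were used at passage 3. The groups received, over 24 h, PBS alone, Aza (an inhibitor of DNA methyltransferases) at 50 µM, free Aza together with metformin at 300 µM and tolvaptan at 10 µM (F-MTAza), or those 3 drugs at the same doses loaded in micelles (NP-MTAza). The series has 12 libraries, 3 per group, of which 10 are used: 3 of PBS, 3 of F-MTAza, 3 of NP-MTAza and Aza replicate 3. Aza replicates 1 and 2 are left out, because the methylation of the same CpGs in them had rank correlations of -0.00288 to 0.00253 with the other libraries, against 0.683 to 0.845 among those 10. Nothing in the sources says that replicates were separate cultures, so the p-values measure the spread between libraries, which may be technical. Summed over CpGs with at least 5 reads, the 10 libraries held 25336747 to 65817118 reads, with 7 to 9 reads at the median CpG. A read that covers several CpGs counts at each of them, here and in the reads of regions below. Of the promoters of proximal tubule markers, 7 of 13 had a level with PBS, at 12.1% to 88.3% methylated with a median of 56.3% and 1 under 20%. Those of 9 markers of other nephron segments had 5 with a level, at 26.5% to 95.3%, and those of 7 genes of other cell types had 4 with a level, at 84.3% to 97.8%. The study measured RNA of selected genes by qRT-PCR, but its text names none of these carriers among them. The methylation levels do not show which carriers the cells make.

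By textbook knowledge, OCT2 draws organic cations such as metformin into the tubule cell from the blood side, driven by the membrane potential. OCT3 and PMAT are uptake carriers with a broad choice of cations and wide expression, and PMAT also carries monoamines. MATE1 and MATE2 exchange cations for protons, and MATE1 passes metformin onward to the urine. Methylation near a gene start often accompanies low transcription, whereas methylation within a gene body is common in transcribed genes. Aza is built into new DNA and traps the maintenance methyltransferase, so methylation is lost as cells divide.

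Slc22a2 lies on chromosome 17 (12777055-12821331, plus strand) and Slc22a3 beside it on the minus strand (12612838-12700570), in the neighbourhood of the imprinted gene Igf2r. Slc29a4 lies on chromosome 5 (143178055-143198443, plus strand). Slc47a2 (61115133-61156362) and Slc47a1 (61156902-61191847) are neighbours on the minus strand of chromosome 11, and the 2000 bp before Slc47a2 reach into the 3′ end of Slc47a1, so that 2 CpGs of the shared set below count for both genes. RRBS sees only part of such genes. Their windows hold 404 to 941 CpGs in the genome and 26 to 77 CCGG sites, the sequence at which the enzyme used for RRBS cuts. Over the 5 genes, 1028 CpGs had at least 5 reads in some library, and 193 had them in at least 2 of the 3 libraries of each of PBS, F-MTAza and NP-MTAza. Those 193 form the shared set used for levels. It holds 15 CpGs of Slc22a2, 56 of Slc22a3, 62 of Slc29a4, 21 of Slc47a1 and 41 of Slc47a2, between 3.71% and 15.1% of the CpGs in each window.

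The stretches on which the results turn are shown from mm9, 5′ to 3′ on the strand of the gene, with the CpGs of the shared set in capitals. They are Slc22a2 intron 2 (chr17:12789405-12789505), where a CpG was called in both combination groups, the upstream part of the Slc22a3 promoter (chr17:12700620-12700820), stretches of Slc29a4 exon 7 (chr5:143193665-143193785) and exon 9 (chr5:143194655-143194745), which stood at mixed and at low levels, Slc47a1 intron 7 (chr11:61177717-61177797), from the methylated part of that gene, Slc47a2 exon 1 (chr11:61156127-61156232), which held part of the region with the most called CpGs, and the border of Slc47a2 exon 4 and intron 4 (chr11:61150212-61150332), with the largest loss at a called CpG.
Slc22a2 intron 2: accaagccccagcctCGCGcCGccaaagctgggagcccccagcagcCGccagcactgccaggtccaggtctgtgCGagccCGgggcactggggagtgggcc
Slc22a3 upstream: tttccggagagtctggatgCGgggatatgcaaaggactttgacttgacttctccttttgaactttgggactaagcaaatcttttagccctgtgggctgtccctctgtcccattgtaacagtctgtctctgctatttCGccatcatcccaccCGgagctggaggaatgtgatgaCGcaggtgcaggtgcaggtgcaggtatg
Slc29a4 exon 7: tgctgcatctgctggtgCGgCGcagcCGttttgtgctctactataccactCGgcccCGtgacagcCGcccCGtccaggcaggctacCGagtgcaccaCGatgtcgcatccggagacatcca
Slc29a4 exon 9: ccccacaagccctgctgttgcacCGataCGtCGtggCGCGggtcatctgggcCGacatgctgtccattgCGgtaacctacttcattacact
Slc47a1 intron 7: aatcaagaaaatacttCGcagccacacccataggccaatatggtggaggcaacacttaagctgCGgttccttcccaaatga
Slc47a2 exon 1: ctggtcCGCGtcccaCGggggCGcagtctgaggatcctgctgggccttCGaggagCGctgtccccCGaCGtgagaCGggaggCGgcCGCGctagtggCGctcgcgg
Slc47a2 exon 4 and intron 4: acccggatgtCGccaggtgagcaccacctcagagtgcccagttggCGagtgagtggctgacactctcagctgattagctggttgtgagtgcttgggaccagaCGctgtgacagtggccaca

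To determine how Aza with metformin and tolvaptan changed DNAme within the carrier genes, the level of each gene body, from the end of the promoter window, 500 bp past the start, to the end of the gene, was compared between groups. The bodies of Slc22a2, Slc22a3, Slc47a2 and Slc29a4 were lower with F-MTAza and with NP-MTAza than with PBS, whereas the body of Slc47a1 passed the test in neither. A body was called where its limma adjusted p was under 0.05 and its level had moved by 10 points or more. By this rule 4 of 5 bodies were lower with F-MTAza, where 81% of all 17636 tested bodies were, and 4 of 5 with NP-MTAza, where 83.1% were. The carriers' share thus stood near that of all genes. Their median difference was -24.99 points with F-MTAza against -25.7 over all bodies, and -27.5 points with NP-MTAza against -27.3.

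Among the uptake carriers, the Slc22a2 body was read at 11 CpGs, all in intron 2. Its level was 89.7%, 84.0% and 82.2% in the PBS libraries, 55.6%, 72.2% and 42.9% with F-MTAza, and 52.8%, 63.5% and 45.5% with NP-MTAza. All treated libraries lay below all PBS libraries, but the F-MTAza libraries spread widely, with 56.9% ± 14.7 (SD, n = 3) against 85.3% ± 3.91 (SD, n = 3) in PBS. The difference was -28.4 points with F-MTAza (95% interval -45.4 to -11.4, adjusted p = 0.00469) and -31.4 points with NP-MTAza (-48.4 to -14.4, adjusted p = 0.00274). The 95% intervals here and below come from the same model fitted to percent values.

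The Slc22a3 body varied little between the libraries of a group. Over 46 CpGs it stood at 72.3%, 73.9% and 69.4% with PBS, at 46.2%, 43.5% and 41.5% with F-MTAza, and at 42.5%, 47.4% and 43.3% with NP-MTAza. No treated library came within 20 points of a PBS library. The difference was -28.1 points with F-MTAza (-34.3 to -22.0, adjusted p = 7.08e-05) and -27.5 points with NP-MTAza (-33.6 to -21.4, adjusted p = 6.78e-05).

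The Slc29a4 body was the least methylated of the 5 with PBS and lost fewer points. Its 51 CpGs were at 57.1%, 49.2% and 45.6% with PBS, at 31.0%, 47.7% and 37.6% with F-MTAza, and at 35.7%, 31.7% and 34.8% with NP-MTAza. The NP-MTAza libraries lay below PBS, whereas F-MTAza replicate 2 lay above PBS replicate 3. It differed from PBS by -16.6 points with NP-MTAza (-27.3 to -5.84, adjusted p = 0.0118) and by -11.9 points with F-MTAza (-22.6 to -1.14, adjusted p = 0.0483). The F-MTAza call was lost in 7 of the 9 fits that left out a library, with an adjusted p of up to 0.160 (without PBS replicate 1), and with the CpGs read in all 10 libraries (-7.79 points, adjusted p = 0.157).

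Of the MATE genes, the Slc47a2 body was read at 18 CpGs. Its level was 77.03%, 75% and 81.9% with PBS, 55.3%, 60.9% and 42.8% with F-MTAza, and 49.0%, 50.0% and 46.2% with NP-MTAza. The treated libraries did not overlap PBS, and the NP-MTAza libraries lay within 4 points of each other. The body differed by -24.99 points with F-MTAza (-35.5 to -14.5, adjusted p = 0.00104) and by -29.6 points with NP-MTAza (-40.03 to -19.1, adjusted p = 0.000405).

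**Figure D1:**
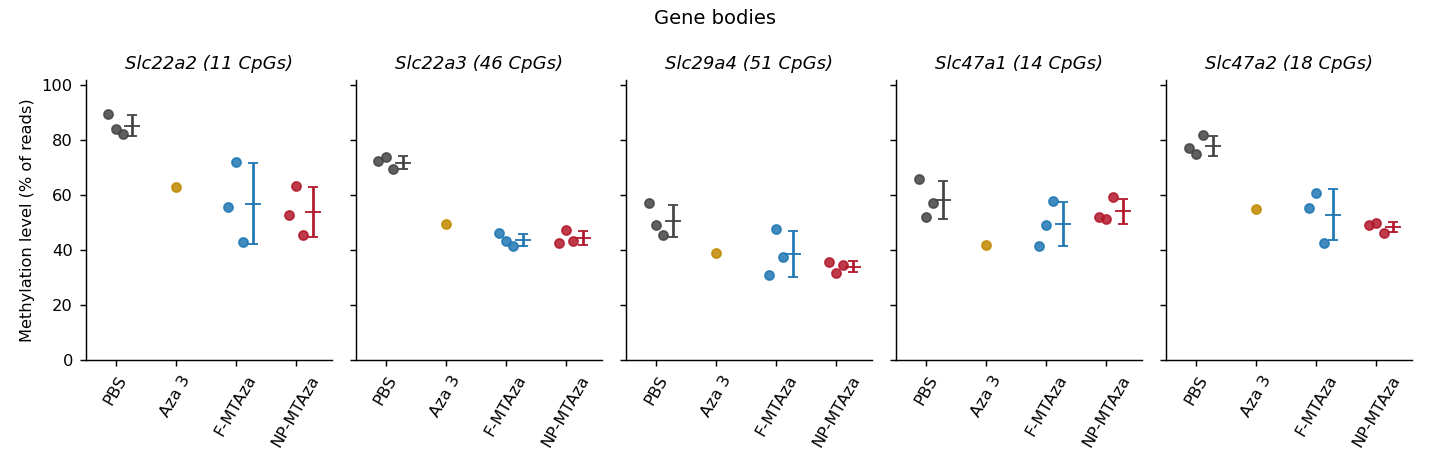
Methylation level of each carrier gene body (percent of reads methylated, y axis) in the 10 libraries, with 1 point per library and the mean ± SD beside groups of 3. PBS lies above both combination groups in Slc22a2, Slc22a3 and Slc47a2, and the groups overlap in Slc47a1.

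The Slc47a1 body, read at 14 CpGs, was at 65.8%, 51.9% and 57.0% with PBS, at 41.6%, 49.2% and 57.8% with F-MTAza, and at 51.9%, 51.2% and 59.2% with NP-MTAza. Treated and PBS libraries overlapped. The difference was -8.71 points with F-MTAza (-20.4 to 3.01, adjusted p = 0.152) and -4.15 points with NP-MTAza (-15.9 to 7.57, adjusted p = 0.468), and 9.61% and 5.11% of all tested bodies lost less. These values depended on how the CpGs were weighted. With every listed CpG the differences were -15.0 points (adjusted p = 0.0322) and -14.4 points (adjusted p = 0.0373), both called. With each CpG set against its own mean, chosen only once the values were known, they were -15.4 points (adjusted p = 0.00295) and -20.3 points (adjusted p = 0.000627). With the CpGs read in all 10 libraries they were -6.46 and 0.392 points, and with the first 500 bp counted as body the NP-MTAza difference was 0.666 points.

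The 14 CpGs of the Slc47a1 body are of unlike kinds. A group of 4 CpGs in intron 13 was low, at 17.9% ± 7.43 (SD, n = 3) with PBS, 11.4% ± 2.32 (SD, n = 3) with F-MTAza and 8.05% ± 7.72 (SD, n = 3) with NP-MTAza. The other 10 were at 91.7%, 100% and 95% with PBS, at 62.2%, 81.4% and 72.2% with F-MTAza, and at 66.02%, 73.4% and 68.3% with NP-MTAza. On those 10 CpGs all treated libraries lay below all PBS libraries. The 4 low CpGs took 31.6%, 63.6% and 50.2% of the body's reads in the PBS libraries, 41.6%, 47.0% and 22.5% in the F-MTAza libraries, and 21.4%, 34.3% and 17.1% in the NP-MTAza libraries. This split was chosen after its values were seen and carries no test. PBS replicate 2 had reads at 4 of the 10 methylated CpGs, and the other libraries had them at 7 to 10.

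**Figure D2:**
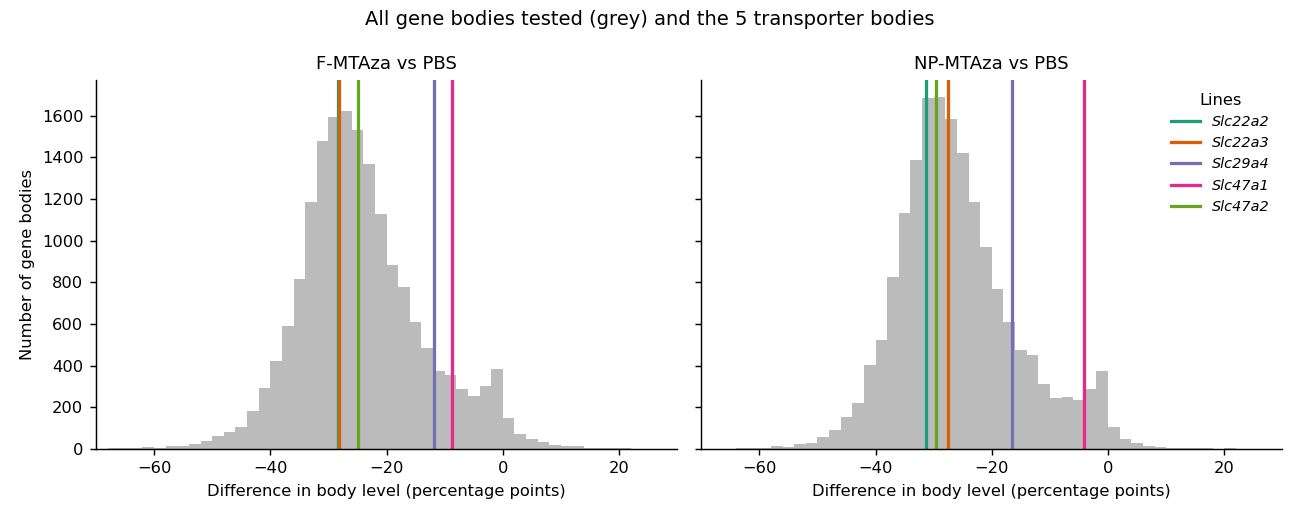
Number of gene bodies (y axis) by difference in level from PBS in percentage points (x axis), for F-MTAza and NP-MTAza, with the 5 carrier bodies as lines. Slc22a2, Slc22a3 (drawn over Slc22a2 in the F-MTAza panel) and Slc47a2 lie in the middle of the 17636 bodies, and Slc29a4 and Slc47a1 lie to the right.

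By the level over all reads, both carriers with the smaller losses, Slc29a4 and Slc47a1, also started from lower levels. Bodies over the genome had a median level of 78.5% with PBS, and the carriers stood at 85.3% (Slc22a2), 78.0% (Slc47a2), 71.9% (Slc22a3), 58.3% (Slc47a1) and 50.7% (Slc29a4). In this order, Slc47a1 and Slc29a4 overlapped in their PBS libraries, as no other neighbours did. The place of Slc47a1 depended on the weighting. With each CpG against its own mean it was at 70.0% with PBS, near Slc22a3 at 71.7% and Slc47a2 at 73.0%. With every listed CpG it was at 66.2%, against 69.3% in Slc22a3. Slc29a4 was the lowest in both settings, at 54.1% and 57.5%. Pooled over the 5 genes, CpGs with a higher starting level lost more points. The 94 CpGs of the shared set at 80% or more with PBS had a mean difference of -27.9 points with F-MTAza and -29.9 points with NP-MTAza, against -31.4 and -33.4 over all 696812 such CpGs in the genome. The 78 CpGs between 20% and 80% differed by -16.6 and -19.9 points, and the 21 under 20% by -1.37 and -2.17 points. Single genes departed from this order. In Slc22a2 the 20% to 80% class differed by -27.6 points with F-MTAza and the class at 80% or more by -26.0 points, and in Slc47a1 the 4 CpGs at 20% to 80% differed by 1.73 points with F-MTAza and 3.06 points with NP-MTAza. These classes were cut from the PBS reads that also enter the difference, and are given as a description.

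Aza alone was represented by 1 library, assumed in the fit to vary as the other groups did. Its body levels, with Wilson 95% intervals that cover counting error only, were 63.0% (54.7% to 70.6%) in Slc22a2, 49.4% (45.5% to 53.4%) in Slc22a3, 39.0% (35.3% to 42.8%) in Slc29a4, 42.0% (34.8% to 49.5%) in Slc47a1 and 55.0% (48.9% to 60.99%) in Slc47a2. These intervals count a read at each CpG it covers, so they are too narrow where CpGs share reads. All 5 levels lay below all 3 PBS libraries of their gene. The bodies of Slc22a3 (-22.5 points, adjusted p = 0.00186) and Slc47a2 (-22.9 points, adjusted p = 0.0116) were called, 2 of 5 where 73.5% of all bodies were. Those of Slc22a2 (-22.3 points), Slc47a1 (-16.2 points) and Slc29a4 (-11.7 points) were not called, and the calls changed with the set of CpGs used. This comparison shares its PBS libraries with those above.

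Whether the micelle changed the loss was asked by setting NP-MTAza against F-MTAza. None of the 5 bodies was called, as 0% of all bodies were, with 0 of 5 carriers and 940 of 17636 bodies at an unadjusted p under 0.05. The difference was 0.648 points in Slc22a3 (95% interval -5.48 to 6.78), -2.94 in Slc22a2 (-19.9 to 14.0), -4.70 in Slc29a4 (-15.4 to 6.05), 4.56 in Slc47a1 (-7.15 to 16.3) and -4.56 in Slc47a2 (-15.0 to 5.91). The interval was within 7 points of 0 in Slc22a3 alone. In Slc22a2 it was the widest.

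**Figure D3:**
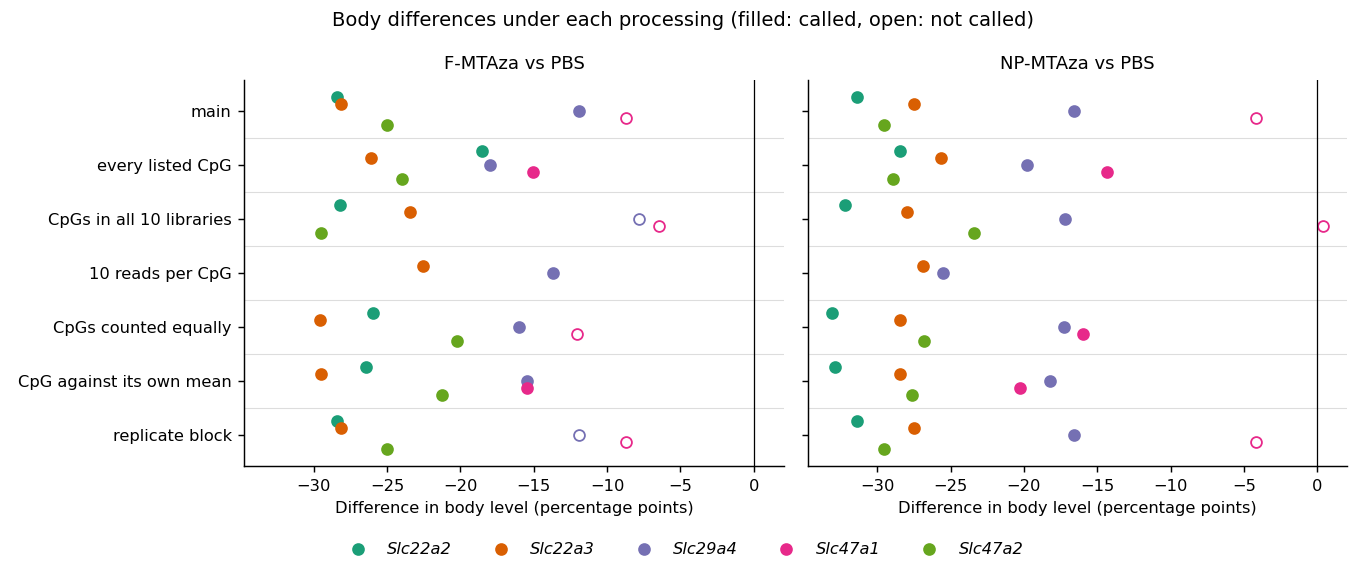
Difference in body level from PBS in percentage points (x axis) for each carrier under 7 ways of processing (y axis), for F-MTAza and NP-MTAza, with filled points called and open points not called. Slc22a2, Slc22a3 and Slc47a2 are called wherever tested, and over the ways plotted Slc47a1 lies between 0.392 and -20.3 points with NP-MTAza.

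Promoters, which spanned the 2000 bp before the gene start and 500 bp after it, could be tested in 2 of the 5 genes, since the others had no reads at shared CpGs in at least 1 library. The Slc22a3 promoter was read at 10 CpGs. Its level was 58.2%, 53.3% and 62.1% with PBS, 40.0%, 33.6% and 40.98% with F-MTAza, and 44.9%, 34.7% and 17.6% with NP-MTAza. All treated libraries lay below PBS, with NP-MTAza replicate 3 lowest. The NP-MTAza difference of -25.5 points was called (-40.96 to -9.95, adjusted p = 0.0213) and the F-MTAza difference of -19.7 points was not (-35.2 to -4.15, adjusted p = 0.0642). The lone Aza library stood at 25% (Wilson 16.4% to 36.1%), a difference of -32.9 points that was called (adjusted p = 0.0492). The NP-MTAza call was lost without PBS replicate 1 (adjusted p = 0.0578) and without PBS replicate 3 (adjusted p = 0.0648), and the Aza call in 7 of 9 such fits, with an adjusted p of up to 0.0971 (without PBS replicate 3).

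The Slc47a2 promoter holds 23 CpGs, 13 of them in exon 1 and 10 upstream. Its level was 81.0%, 84.2% and 69.2% with PBS, 66.9%, 79.8% and 64.5% with F-MTAza, and 61.3%, 65.9% and 53.2% with NP-MTAza. NP-MTAza lay below PBS and F-MTAza overlapped it. The difference of -18.0 points with NP-MTAza was called (-31.5 to -4.48, adjusted p = 0.0447), and those of -7.70 points with F-MTAza (adjusted p = 0.318) and -11.5 points with the lone Aza library (adjusted p = 0.361) were not. The NP-MTAza call was lost in 6 of the 9 fits that left out a library, with an adjusted p of up to 0.144 (without NP-MTAza replicate 3). Of the 2 tested promoters, 2 were thus lower with NP-MTAza (33.9% of all 15285 tested promoters), 0 with F-MTAza (31.7%) and 1 with Aza replicate 3 (19.1%). By limma, 1 of these 2 was at an unadjusted p under 0.05 with F-MTAza, as were 6839 of all 15285. No promoter of these genes or of any other gene was called between NP-MTAza and F-MTAza (0%), where 684 promoters, none of them a carrier's, had an unadjusted p under 0.05. The NP-MTAza minus F-MTAza difference was -5.80 points (-21.3 to 9.70) in Slc22a3 and -10.3 points (-23.8 to 3.22) in Slc47a2.

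The promoters of Slc22a2 and Slc29a4 had no reads at shared CpGs in PBS replicate 2. At 4 CpGs of exon 1, Slc22a2 was at 70.6% and 75.4% with PBS, at 30%, 43.2% and 40% with F-MTAza, at 42.9%, 34.2% and 61.1% with NP-MTAza and at 33.3% with Aza. All treated libraries lay below the 2 PBS libraries, on 10 to 65 reads each. Without PBS replicate 2 it passed the test, at -35.3 points with F-MTAza (adjusted p = 0.0237) and -26.9 points with NP-MTAza (adjusted p = 0.0486). At 11 CpGs, Slc29a4 was at 58.0% and 64.3% with PBS, at 21.8%, 48.8% and 53.3% with F-MTAza, and at 36.8%, 40.6% and 54.5% with NP-MTAza. In the same fit its differences were -19.8 points (adjusted p = 0.205) and -17.2 points (adjusted p = 0.2802). The Slc47a1 promoter, with 7 CpGs in exon 1 and beside it, remained above 70% in all libraries with reads. It was at 83.3% and 87.0% with PBS, 73.2% and 74.3% with F-MTAza, 88.1%, 87.5% and 97.4% with NP-MTAza and 98.0% with Aza, on 35 to 76 reads each, and was not tested.

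**Figure D4:**
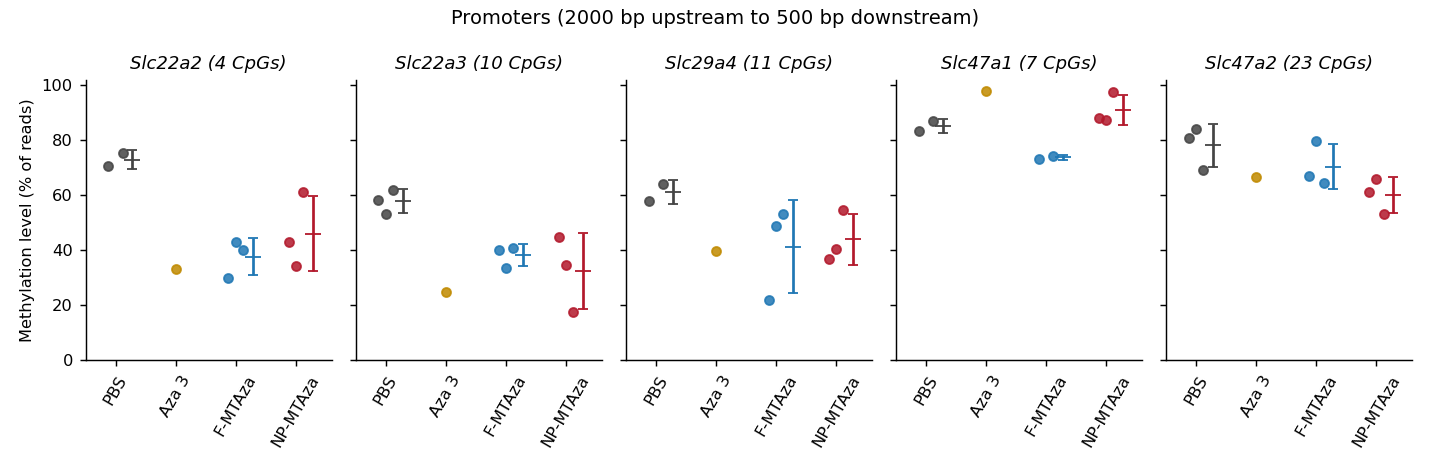
Methylation level of each carrier promoter (percent of reads methylated, y axis) by library, with the mean ± SD beside groups of at least 2 libraries. Treated libraries lie below PBS in Slc22a2, Slc22a3 and Slc29a4, and the Slc47a1 promoter lies between 73.2% and 98.0% in the 8 libraries with reads.

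Single CpGs were called by a likelihood ratio test on pooled reads, where the q was under 0.01 and the levels were 35 points or more apart. Against PBS, 7 of 79 tested carrier CpGs were hypomethylated with F-MTAza, where 22% of 512170 CpGs in the genome were, and 37 of 133 with NP-MTAza, where 25.9% of 814760 were. None was hypermethylated in either comparison. Slc22a3 held 12, Slc47a2 12, Slc29a4 11 and Slc22a2 2 of those called with NP-MTAza, and Slc47a1 held 0 in 5 tested. Of the 42 CpGs called in either comparison, 28 stood at 80% or more with PBS and 1 under 50%. That split is largely set by the rule, since a call needs a loss of 35 points or more from the same PBS reads. The likelihood ratio test takes the pooled reads of a group as a whole. An F test that uses the spread between libraries gave an unadjusted p under 0.05 at 13 of 79 and 47 of 133 carrier CpGs. Over the genome it did so at 201469 of 512170 and 350107 of 814760 CpGs. By the same thresholds of q and difference, 0 carrier CpGs and 0 CpGs of the genome were called in either comparison. This F test was also applied at CpGs that varied no more than counting gives, and it called nothing in the genome. It therefore cannot tell which calls on pooled reads depend on the spread between libraries. Where the F test was used only at CpGs that varied more than counting gives, a rule added after this result was seen, 2 of 79 and 14 of 133 were called, against 46497 of 512170 and 89641 of 814760 in the genome.

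Of 74 CpGs tested in both comparisons, 6 were called with F-MTAza, 15 with NP-MTAza and 2 in both. The share called in both was not counted over the genome, so these counts do not set the carriers apart. In Slc22a2 intron 2, the CpG at chr17:12789422, which lies in the sequence above, was at 91.1% over 45 reads with PBS, 55.6% over 27 reads with F-MTAza and 53.6% over 28 reads with NP-MTAza. In Slc47a2 intron 4, the CpG at chr11:61150229 was methylated in all 67 PBS reads and in 31.0% of 29 F-MTAza and 61.5% of 39 NP-MTAza reads. By library it stood at 100% in all 3 of PBS, at 25%, 18.2% and 50% with F-MTAza, at 81.8%, 42.9% and 64.3% with NP-MTAza and at 37.5% with Aza. It is the last CpG in capitals in the sequence of exon 4 and intron 4, and the F-MTAza loss of 69.0 points was the largest in these genes.

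Called CpGs within 500 bp were joined into regions. The only region with at least 5 called CpGs was in Slc47a2 with NP-MTAza, at chr11:61155949-61156176 in exons 1 and 2, with 5 CpGs and a mean difference of -37.0 points. At 61155949, 61155970 and 61155988, outside the shared set, F-MTAza had reads in replicate 3 alone and was not tested. It stood there at 22.2%, 11.1% and 12.5%, against 40%, 20% and 37.5% with NP-MTAza. At 61156156 and 61156176 F-MTAza was tested and not called, at 62.5% and 75% against 47.4% and 61.9% with NP-MTAza. The region with the most called CpGs in Slc22a3 lay in the 3′ UTR in exon 11, where 4 CpGs had 95.7% to 98.5% of reads methylated with PBS and 38.9% to 54.5% with NP-MTAza. With F-MTAza the same 4 CpGs were at 67.9% to 76.5%, and of the 3 that could be tested 0 were called. In Slc29a4 it lay in intron 2, with 4 CpGs called with NP-MTAza and a mean difference of -38.9 points, and in Slc22a2 in intron 2, with 2 called with F-MTAza and -35.6 points. No CpG of the carriers was called between NP-MTAza and F-MTAza, where 0.031% of 717065 CpGs were. With that test, 13 of 101 carrier CpGs had an unadjusted p under 0.05, against 83860 of 717065 in the genome.

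**Figure D5:**
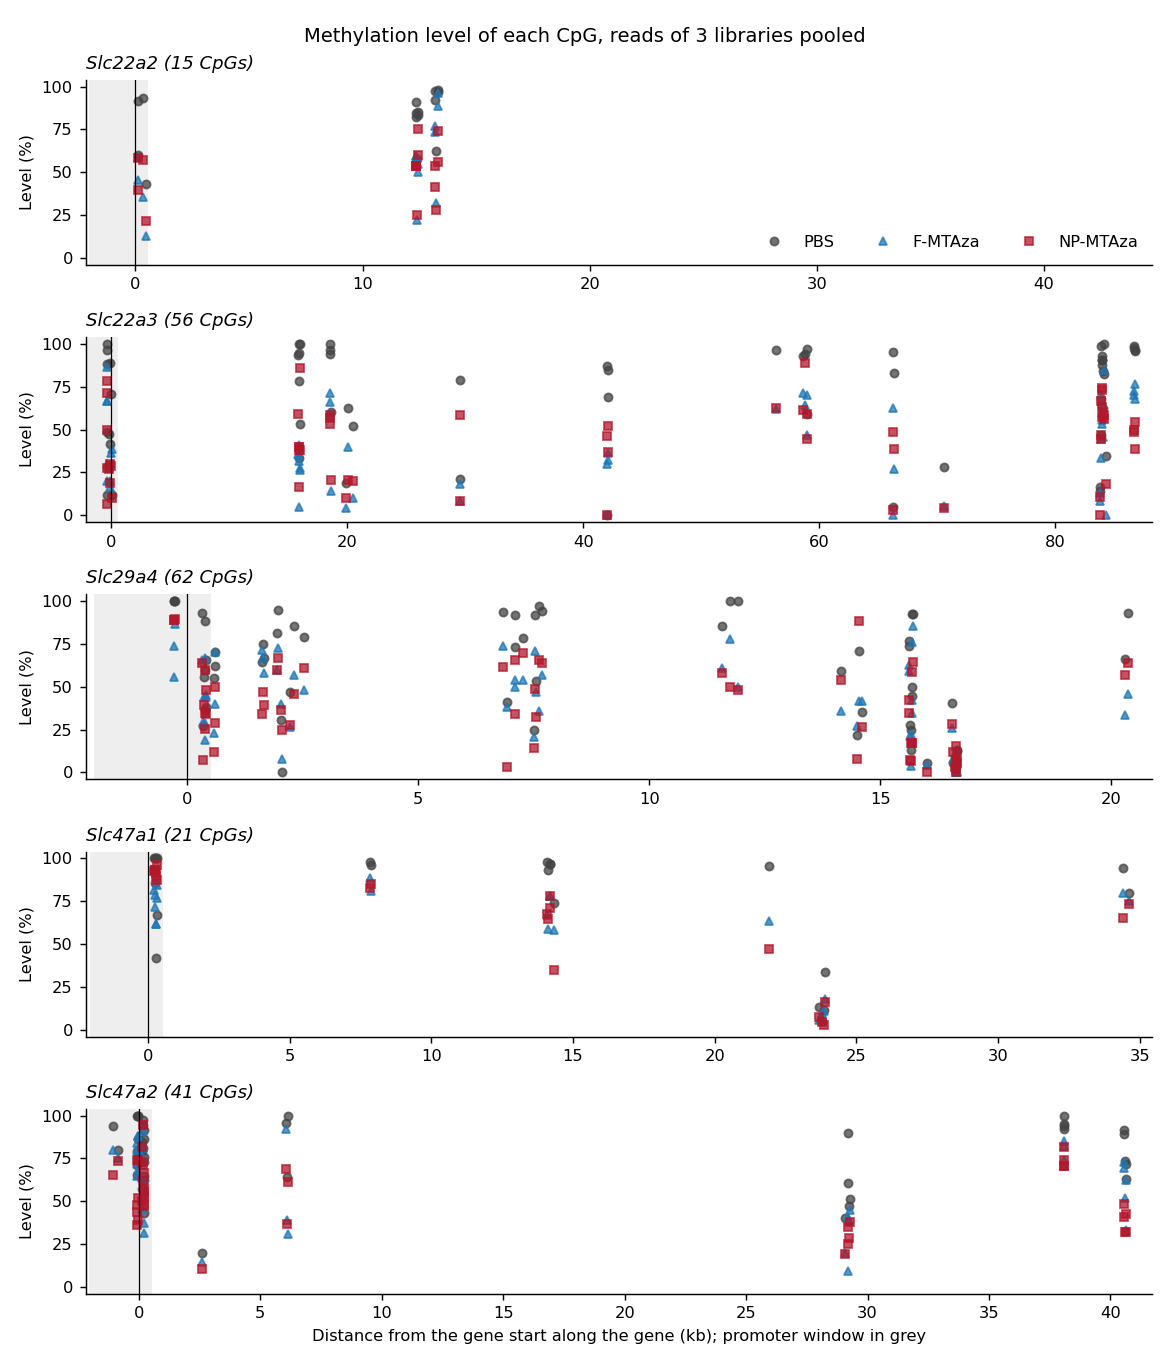
Level of each shared CpG (percent, y axis) by distance from the gene start in kb (x axis), with reads of the 3 libraries of PBS, F-MTAza and NP-MTAza pooled and the promoter window in grey. High PBS points have treated points below them along the genes, and the low CpGs of Slc47a1 intron 13 and Slc29a4 exon 9 lie close together in the 3 groups.

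The CpGs with the smallest losses also differed between the genes. Among CpGs at 50% or more with PBS and tested in both comparisons, the smallest mean loss was 4.74 points in Slc47a2, in exon 1 at chr11:61156183 (81.1% with PBS, 81.3% with F-MTAza and 71.4% with NP-MTAza). It was 11.5 points in Slc22a2, in intron 2 at chr17:12790375 (96.6%, 96.2% and 74.0%). In Slc47a1 it was 12.4 points, in intron 3 at chr11:61183992 (98.1%, 88.5% and 83.0%). In Slc22a3 it was 13.1 points, at chr17:12641656 in intron 5, and in Slc29a4 13.5 points, at chr5:143185605 in intron 2. The printed stretch of Slc29a4 exon 9 was low from the outset, with its 7 shared CpGs at 3.41% to 13.3% with PBS, 0% to 9.09% with F-MTAza and 0% to 15.3% with NP-MTAza. A further CpG of exon 9, at chr5:143194757 and outside the shared set, was at 94.4% over 54 reads with PBS and 58.3% over 36 reads with NP-MTAza, and was called. The 9 shared CpGs of exon 7, less than 1 kb upstream, ranged from 13.0% to 92.6% with PBS.

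The shared CpGs fell into 36 groups of neighbours less than 500 bp apart. The mean level was lower than with PBS in 36 of them with F-MTAza and in 35 with NP-MTAza, and in 24 and 30 all treated libraries lay below all PBS libraries. The exception with NP-MTAza was the Slc47a1 promoter. Such groups were not counted over the genome, so these counts do not set the carriers apart. Of all tested bodies, 81% were called lower with F-MTAza and 83.1% with NP-MTAza. The largest differences were in Slc22a3 intron 1, where 7 CpGs fell from 77.9% ± 6.43 (SD, n = 2) to 23.9% ± 17.8 (SD, n = 3) with F-MTAza and 36.8% ± 28.2 (SD, n = 3) with NP-MTAza, and at a CpG of Slc47a1 intron 13, with 97.1% ± 4.16 (SD, n = 2) against 47.7% ± 3.21 (SD, n = 2) with NP-MTAza. That intron 13 CpG had only 5 and 17 reads in the PBS libraries and 8 and 11 in the NP-MTAza libraries. These groups carry no test.

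Genes with body levels most like those of the carriers were found by the mean absolute difference over the 10 libraries, among 11943 protein-coding genes with at least 10 shared CpGs. They were Prnd (2.94 points) and Hrg (4.17 points) for Slc22a2, Fam190a (1.57) and Bmp6 (1.75) for Slc22a3, Xkr7 (2.93) and Gm15319 (3.14) for Slc29a4, Galr1 (3.97) and Rnf215 (4.26) for Slc47a1, and Myh3 (2.40) and Zfp474 (2.47) for Slc47a2. The median gene differed by 11.1 to 20.6 points.

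Most bodies of other carriers were also lower, as were most bodies of all genes. Of 14 further carriers of metformin or of other cations, 13 bodies were tested, and 12 were lower with F-MTAza, 13 with NP-MTAza and 10 with Aza replicate 3, with median differences of -31.1, -30.0 and -36.1 points. Over all bodies 81%, 83.1% and 73.5% were lower, with medians of -25.7, -27.3 and -28.3 points. The largest called were in Slc19a3, a thiamine carrier (-43.3 points with F-MTAza and -45.9 with Aza), and in Slc29a3, a nucleoside carrier (-34.4 points with NP-MTAza). Of 18 other Slc22 genes, 15 bodies were tested, with 13, 14 and 11 lower and medians of -21.9, -22.5 and -22.8 points. The largest was in Slc22a17 (-38.2, -49.0 and -42.1 points), which encodes a receptor for lipocalin 2. Among promoters, 3 of 6 of the first list and 3 of 5 of the other Slc22 genes were lower with F-MTAza, and 2 of 6 and 3 of 5 with NP-MTAza, where 31.7% and 33.9% of all promoters were. They include the promoter of Slc22a8, the proximal tubule anion carrier OAT3 (-41.4 points with F-MTAza and -39.9 with NP-MTAza). No body or promoter of either list was higher.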

How the data were processed

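RRBS was made from PKD1-Het cells in 4 groups of 3 libraries. Per the labels and the methods of the study, the authors used Trim Galore 0.4.4 for trimming and Bismark 0.20.1 with Bowtie2 for alignment to mm9, and merged the strands of each CpG. The deposited files give for each CpG the counts of methylated and of all reads, with at least 5 reads, and a methylation percent that the authors rounded down, except on 9 lines of NP-MTAza replicate 1 and 10 of replicate 2 among the libraries used; levels were recomputed from the counts. The 10 libraries used held 25336747 to 65817118 reads, summed over the listed CpGs. Wilson 95% intervals cover counting error only and treat such sums as independent reads.

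A promoter ran from 2000 bp before to 500 bp after the gene start and a body from there to the gene end. The level of a region was its methylated over all reads at CpGs with at least 5 reads in at least 2 of 3 libraries of PBS, F-MTAza and NP-MTAza. Regions with at least 2 CpGs, and 5 reads in each of the 10 libraries, were tested on the arcsine of the square root of the level with limma 3.58.1 in R 4.3.3, all groups in 1 fit, with Benjamini-Hochberg adjustment over all regions of a kind. CpGs with at least 5 reads in all 6 libraries compared were tested by a likelihood ratio test on pooled reads. CpGs called were joined within 500 bp, and regions under 100 bp were widened to 100 bp. All 5 genes were named, with, per gene, the CpG of largest mean loss called in both combination groups, the CpG of smallest loss at 50% or more in PBS, the joined regions with at least 5 called CpGs or else the one with most, the 2 genes of most similar level, and from each list at most 3 genes, those whose called difference was greatest. CpG groups, the Slc47a1 split and other CpGs were named after their values were seen. Alternatives were the CpG set, 10 reads, equal weights, the promoter end, the percent scale, a replicate block, overdispersion, other thresholds and leaving out each library. The members and lists were chosen with earlier results of these data known. Python 3.11.15, pandas 2.3.3 and scipy 1.17.1 were used.

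On simulated data with 200 changed regions, limma recovered 0 of 200 bodies and 2 of 200 promoters at changes of 25 points with a wide spread, and 198 and 176 at 45 points with a narrow spread, with 3 and 0 false calls. The simulated spread was chosen, not estimated from the libraries, and 200 of 17636 bodies were changed, whereas most bodies were called in the data. These runs therefore do not give the recovery in the data. The likelihood ratio test recovered 193 of 200 CpGs. Those CpGs had a change above the 35-point threshold and no spread between libraries beyond counting, so this run does not cover such spread.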

Additional observations from a re-analysis of the deposited data

Results flagged for a closer look

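At the Slc47a1 promoter the combination groups lay on opposite sides of PBS. The mean level differed from PBS by -11.4 points in the 2 F-MTAza libraries with reads and by 5.84 points in the 3 NP-MTAza libraries, and neither group overlapped the 2 PBS libraries with reads. This difference was not tested, since PBS replicate 3 and F-MTAza replicate 1 had no reads at the shared CpGs. With every listed CpG, the NP-MTAza difference was -6.88 points and the F-MTAza difference -8.53 points.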

How the results depend on the processing

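The body calls of Slc22a2, Slc22a3 and Slc47a2 with F-MTAza and NP-MTAza, and of Slc29a4 with NP-MTAza, kept their direction and side of the threshold in every alternative that could be run. With at least 10 reads per CpG, 2 carrier bodies could be tested, and 2 were called with F-MTAza and 2 with NP-MTAza. Of all 10661 bodies tested in this setting, 8621 and 8812 were lower. With every listed CpG, and with each CpG against its own mean (added after seeing the data), the body calls with Aza replicate 3, a single library, differed from those above. The Slc47a1 body with NP-MTAza turned to 0.392 points with CpGs read in all 10 libraries and to 0.666 with the promoter ending at the gene start.

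Carrier promoters called with F-MTAza numbered 1 with every listed CpG, equal weights or each CpG's own mean. Of all promoters, 5558 of 17953, 4823 of 15285 and 5869 of 15285 were lower in these settings. With NP-MTAza the carriers' calls numbered 1 with every listed CpG, equal weights or the promoter ending at the gene start. They numbered 0 with CpGs read in all 10 libraries. Of all promoters, 5943 of 17953, 5222 of 15285, 4056 of 11148 and 3831 of 11529 were lower in these 4 settings. With Aza replicate 3, a single library, the Slc22a3 promoter call did not remain with CpGs read in all 10 libraries or the promoter ending at the gene start. Nor did it remain with the percent scale or the replicate block. Leaving out each library in turn gave 0 to 1 carrier promoters with F-MTAza and 0 to 2 with NP-MTAza. Of all 15294 to 16186 promoters tested in these fits, 3789 to 4636 and 3902 to 5417 were lower.

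Carrier CpGs called with F-MTAza and NP-MTAza numbered 0 and 0 with overdispersion at every CpG, 2 and 14 with overdispersion only where above binomial (added after seeing the data), 17 and 56 at 25 points, 0 and 6 with at least 10 reads, and 20 and 66 with no difference threshold. Over the genome, 204483 of 512170 and 368109 of 814760 CpGs were hypomethylated at 25 points, and 250273 and 432949 with no difference threshold. With at least 10 reads, 23215 of 111960 and 69644 of 274131 were, where 5 and 38 carrier CpGs were tested. Leaving out each library in turn gave 5 to 12 carrier CpGs with F-MTAza and 27 to 39 with NP-MTAza. Of these, 1 was hypermethylated without PBS replicate 3 and 1 without NP-MTAza replicate 3. Over the genome, these fits gave 118500 to 151321 hypomethylated CpGs with F-MTAza, of 527530 to 697424 tested. With NP-MTAza they gave 211226 to 292498, of 843529 to 1153217 tested.

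NP-MTAza minus F-MTAza, which was called nowhere in these genes, changed sign in 12 cases. For bodies these were Slc22a2 without F-MTAza replicate 2 (4.71 points) and without NP-MTAza replicate 3 (1.29), Slc22a3 with CpGs read in all 10 libraries (-4.50), 10 reads (-4.34), without F-MTAza replicate 3 (-0.456) and without NP-MTAza replicate 2 (-0.836), Slc47a1 with equal weights (-3.98) and each CpG's own mean (-4.85), and Slc47a2 with CpGs read in all 10 libraries (6.11). For promoters they were Slc22a3 with every listed CpG (5.18) and without NP-MTAza replicate 3 (1.62), and Slc47a2 with CpGs read in all 10 libraries (5.75). Leaving out each library in turn, this difference ran from -9.94 to 4.71 points in the Slc22a2 body, from -0.836 to 1.88 in the Slc22a3 body and from -12.1 to 1.62 in the Slc22a3 promoter. The cause of these changes was not tested.

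Replicate numbers gave no sign of pairing the libraries. Deviations of same-numbered libraries correlated at -0.0681 to 0.0134, and those of other pairs at -0.0369 to 0.0797. Of 9 libraries, 0 correlated best with their own number. As all pairs correlated near 0, this check cannot show that the libraries were unpaired. With the replicate block in limma, 3 carrier bodies were called with F-MTAza, Slc29a4 being lost (adjusted p = 0.0807). Of all 17636 bodies, 14178 were lower in that fit. The Slc22a3 promoter call with Aza replicate 3 was lost too. At the promoters, 3 of 5 could not be tested because a library had no reads at the CpGs used.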

Other observations

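Bodies of the gene cluster around Slc22a2 and Slc22a3 on chromosome 17 were lower too, as most bodies of all genes were. For the 6 symbols listed there, with 7 gene models in the annotation because Map3k4 has 2, 7 of 7 bodies were lower with F-MTAza and with NP-MTAza and 6 of 7 with Aza replicate 3, with medians of -29.5, -33.1 and -33.5 points. Over all bodies 81%, 83.1% and 73.5% were lower, with medians of -25.7, -27.3 and -28.3 points. The largest differences were in Map3k4, a stress kinase (-39.1 points with F-MTAza), and in Plg, which encodes plasminogen (-37.1 points with NP-MTAza). The promoter of Igf2r, the imprinted receptor for insulin-like growth factor 2, differed by -24.0 points with NP-MTAza (adjusted p = 0.0492), and was not called with F-MTAza (-19.2 points, adjusted p = 0.135) or Aza replicate 3 (-19.6 points, adjusted p = 0.327). The other tested promoter, of Map3k4, was called in none of these 3 comparisons.

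The libraries left out gave few reads at the carriers. Aza replicate 1 covered 39 and Aza replicate 2 covered 27 of the 193 shared CpGs, with 312 and 288 reads, against 141 to 191 CpGs and 1114 to 4060 reads in the 10 libraries used.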
